A study of Mus musculus with 3 samples.

Results

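The red cell barcodes are the droplet barcodes of 3 mouse neuroblastomas in which adult hemoglobin transcripts took a large share of the RNA counted. A barcode stands for 1 droplet, and a UMI (unique molecular identifier) for 1 counted RNA molecule. Every barcode of the raw count files was used, whether or not the authors kept it in their normalized files. A barcode was taken as a red cell barcode when the 4 adult globin genes Hba-a1, Hba-a2, Hbb-bs and Hbb-bt made up at least 10% of its UMIs outside mitochondrial (mt-) genes. The rule found 195 of 13622 barcodes (1.43%) and left 13427 others. The barcodes were thus chosen by their own globin values, and these are given as a description, with no test.

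The tumors came from TH-MYCN mice, in which the tyrosine hydroxylase promoter drives human MYCN in cells of the sympathoadrenal lineage. All 3 mice were heterozygous for the transgene, and they were 62, 79 and 63 days old for tumors 1, 2 and 3. Each tumor was dissociated with enzymes and made into 1 droplet library, so there is 1 group with 3 tumors and no tumor-free tissue. The raw files held 3257, 4327 and 6038 barcodes with 17319241, 21829496 and 20041044 UMIs in tumors 1, 2 and 3.

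Red cells form from erythroblasts that fill with hemoglobin, stop dividing, expel the nucleus and become reticulocytes, which still carry RNA for a short time. The maturing cell makes heme in its mitochondria, builds a protein skeleton under a membrane rich in band 3, and then clears its mitochondria and ribosomes. Blood in a dissected tumor carries such cells into the cell suspension, and globin RNA released from broken cells can enter any droplet.

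Tumor 1 held most of the red cell barcodes. There were 163 of 3257 barcodes in tumor 1 (5.005%, exact binomial 95% interval 4.28% to 5.81%), 10 of 4327 in tumor 2 (0.231%, 0.111% to 0.425%) and 22 of 6038 in tumor 3 (0.364%, 0.228% to 0.551%). Thus 83.6% of all red cell barcodes came from 1 library, and sums over the 3 tumors mainly describe tumor 1. They held 4.56% of all UMIs of tumor 1, 0.112% of tumor 2 and 0.256% of tumor 3, and 95.2%, 90.1% and 86.9% of all globin UMIs. The globin UMIs of the whole libraries were 693957, 12590 and 24904. With 1 library a tumor, the difference between tumors was not tested. The intervals here cover counting error only.

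**Figure D1:**
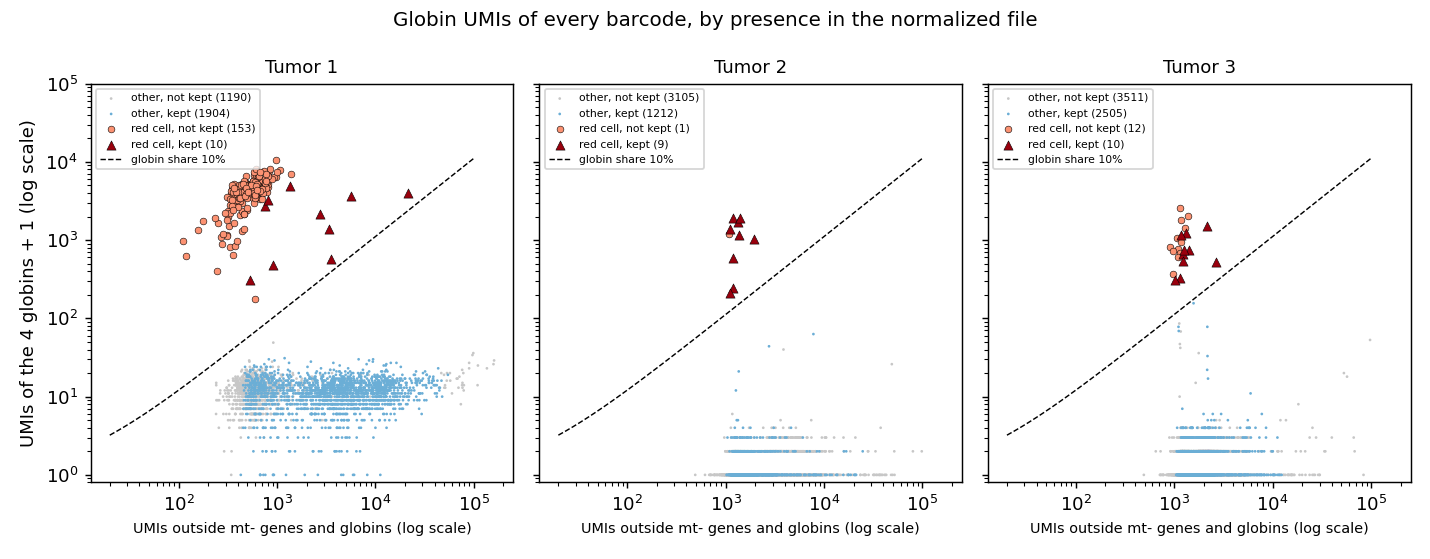
Globin UMIs plus 1 against UMIs outside mitochondrial genes and globins for each of the 13622 barcodes (both axes on log scales), with the 10% rule as a dashed line. Tumor 1 has a dense group of 153 red cell barcodes missing from the normalized file and a band of other barcodes near 11 globin UMIs at every depth.

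Few barcodes lay near the threshold. In tumor 1 the lowest red cell barcode had a globin share of 14.1% and the highest other barcode 5.49%, in tumor 2 these were 16.2% and 1.53%, and in tumor 3 they were 16.7% and 8.98%. Between 10% and 20% lay 2, 2 and 1 barcodes, and between 5% and 10% lay 3, 0 and 5. The spread above the threshold differed between the tumors. In tumor 1, 92 red cell barcodes had 80% to 90% globin and 51 had 90% or more, whereas no barcode of tumors 2 and 3 reached 80%. In tumor 3, 17 of the 22 lay between 20% and 50%.

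The libraries shared few barcode sequences. Tumors 1 and 2 had 8 in common, tumors 1 and 3 had 1, and tumors 2 and 3 had 8. Of these shared sequences, 1 was a red cell barcode in tumor 1 and an other barcode in tumor 2, and none was a red cell barcode in both tumors.

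Apart from globin, the red cell barcodes held little RNA. The median number of UMIs outside mitochondrial genes and globins was 524 in tumor 1, 1189.5 in tumor 2 and 1173.5 in tumor 3, against 1453, 2845 and 2018 in the other barcodes. The median number of genes seen was 251, 718 and 718, against 825.5, 1561 and 1143.5. The others that were kept had medians of 4067.5, 1523.5 and 1728 such UMIs and 1540.5, 889.5 and 985 genes. Against these the gap was larger in tumor 1 and smaller in tumors 2 and 3. Mitochondrial genes made up a median of 0.262%, 0.910% and 1.21% of UMIs in red cell barcodes and 5.40%, 31.0% and 25.7% in the other barcodes, but 3.17%, 3.17% and 2.45% in the others that were kept. The red cell barcodes were thus low in genes in all 3 tumors. The mitochondrial share counts globin UMIs in its total, so the rule itself lowers it. It is therefore not read as low mitochondrial RNA. Single barcodes reached 23.2% mitochondrial UMIs in tumor 1 and 25.5% in tumor 3.

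Genes that the rule did not use were checked against the red cell label. Alas2, the erythroid enzyme that starts heme synthesis, had 118.7 UMIs per 10000 UMIs outside mitochondrial genes and globins in the red cell barcodes of tumor 1, 16.3 in tumor 2 and 9.65 in tumor 3. The same measure in the other barcodes was 0.0487, 0.00729 and 0.00896. At equal depth, after random thinning of each barcode to 500 UMIs outside mitochondrial genes, Alas2 was seen in 58.9% (95% interval 50.9% to 66.5%), 50% (18.7% to 81.3%) and 27.3% (10.7% to 50.2%) of red cell barcodes. In all other barcodes thinned alike it was seen in 0.995% (0.662% to 1.43%), 0.0232% (0.000587% to 0.129%) and 0.0499% (0.0103% to 0.146%), with 279, 1 and 1 of them left out for having fewer than 500. The median depths before thinning were 4699, 2514 and 2070.5 UMIs outside mitochondrial genes in red cell barcodes and 1465, 2845 and 2018 in the others.

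The other defining markers had 0 UMIs in tumor 3. Slc4a1, the band 3 anion exchanger, had 185 UMIs (15.1 per 10000) in tumor 1, 13 UMIs (10.1) in tumor 2 and 0 in tumor 3. It was seen in 53 of 163 barcodes of tumor 1 and in 2 of 10 of tumor 2, with 9 of the 13 UMIs in 1 of them and 3.66 per 10000 without it. Hemgn, a nuclear protein of erythroid cells, had 14, 5 and 0 UMIs, and Klf1, an erythroid transcription factor, had 2, 2 and 0. A count of 0 in tumor 3 allows up to 1.07 per 10000 (3 UMIs), which is below the level of Slc4a1 in tumors 1 and 2. Klf1 had 2 UMIs in the larger sum of tumor 1, so its 0 in tumor 3 does not show a lower level. Ahsp, the alpha globin chaperone, is not among the gene symbols of the files. In tumor 3 the label therefore rests on the rule genes, on Alas2 (27 UMIs in 14 of 22 barcodes) and on the late genes described further on. For that tumor, red cell barcodes names the barcodes that the rule found and does not stand for a settled cell type.

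Some red cell barcodes also carried RNA of other cell types. The barcode with the most UMIs, in tumor 1, had 26916 UMIs, 4495 genes and a globin share of 15.6%, and it held 985 UMIs of 10 macrophage and monocyte markers, 485 of them from the complement genes C1qa, C1qb and C1qc. With it, these markers summed to 87.3 UMIs per 10000 in tumor 1, and without it to 8.23. The other barcodes of tumor 1 had 82.2. In tumors 2 and 3 the red cell barcodes had 0 and 2.86, against 6.27 and 16.0 in the other barcodes. Lyz2, the lysozyme gene of myeloid cells, was the most abundant of the list in tumors 1 and 3.

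Markers of tumor cells were also seen. The 10 tumor cell genes summed to 2.62, 17.9 and 36.1 UMIs per 10000 in the red cell barcodes and 2.83, 84.6 and 49.9 in the other barcodes. In the red cell barcodes the most abundant were Stmn2, a gene of neuronal microtubule dynamics, in tumors 1 and 3, and Chgb, a granin of neuroendocrine vesicles, in tumor 2. The part of another cell in the same droplet, or of free RNA, in these values was not tested.

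Of the other marker lists, some were lower in red cell barcodes and some were not. Neutrophil markers summed to 3.68 UMIs per 10000 in tumor 1 and to 0 UMIs in tumors 2 and 3, against 69.0, 13.3 and 1.47 in the other barcodes, with Csf3r, Cxcr2 and Ly6g at 0 in all red cell barcodes. Fibroblast markers summed to 4.99, 0.776 and 0.357, against 59.0, 3.32 and 3.61, with Col3a1 on top in tumor 1. The values of tumors 2 and 3 rest on 1 UMI each, and the interval of tumor 2 (0.0197 to 4.33) covers the level of its others. Endothelial markers gave 1.14, 0.776 and 0.357 against 4.19, 0.717 and 0.884, with Cdh5 and Kdr at 0 and 1 UMI each in tumors 2 and 3. So the endothelial list was lower in tumor 1 and not told apart in the others. In tumor 1, T cell markers gave 3.84 against 4.02 and B cell markers 4.66 against 5.79, within the Poisson intervals of the red cell sums. Of the 57 B cell marker UMIs, 17 lay in 1 barcode and 20 in another. Platelet markers were higher in tumor 1 at 0.981 against 0.468, with 11 of the 12 UMIs from Pf4 in the barcode with the most UMIs. T cell, B cell and platelet markers had 0 UMIs in tumors 2 and 3, where 3 UMIs would be 2.33 and 1.07 per 10000, above the levels of these lists in the other barcodes.

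The 4 adult globins kept a similar order in all 3 tumors. Hbb-bs, an adult beta chain gene, gave 54.2%, 60.0% and 58.5% of the globin UMIs of red cell barcodes. Hba-a1 gave 19.7%, 17.9% and 18.5%, and Hba-a2 gave 15.05%, 14.04% and 14.3%. Hbb-bt, the other adult beta chain gene, gave 11.04% in tumor 1 (95% interval 10.97% to 11.12%), 8.09% in tumor 2 (7.59% to 8.60%) and 8.59% in tumor 3 (8.22% to 8.98%). The order from Hbb-bs down to Hbb-bt was the same in each tumor. The alpha to beta ratio of UMIs was 0.533, 0.469 and 0.489. These are counts of 3′ ends and not of transcripts per length.

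Single barcodes varied more than the sums. Hbb-bt ranged from 0.494% to 17.9% of globin UMIs over the 163 barcodes of tumor 1 (median 11.1%) and from 0% to 10.2% over the 10 of tumor 2 (median 8.43%). In tumor 3 it ranged from 1.54% to 15.6% with quartiles of 2.88% and 11.4%, and the summed share was 5.84% in the 10 kept barcodes and 10.1% in the 12 that were not kept. Barcodes of 1 tumor share a library and are not replicates, so this difference was not tested.

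Embryonic globins were near or at 0. Hba-x, Hbb-y and Hbb-bh1, which are made in the primitive red cells of the yolk sac, had 0 UMIs in the red cell barcodes of every tumor. Hbq1a and Hbq1b, the theta globins, had 18 and 32 UMIs in tumor 1, 0 and 3 in tumor 2 and 0 and 0 in tumor 3.

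The globin genes sit in 2 clusters of near copies. In the mm10 assembly Hba-a1 and Hba-a2 lie on chromosome 11 with a gap of 12023 bases, and Hbb-bt and Hbb-bs on chromosome 7 with a gap of 12537 bases. In the GENCODE M21 transcripts, Hba-a1 and Hba-a2 differed at 1 of 538 aligned bases (99.8% identity), with an identical run of 415 bases. Hbb-bs and Hbb-bt differed at 46 of 626 aligned bases (92.7% identity), 37 of them within the last 300 bases. The split of UMIs between Hba-a1 and Hba-a2 therefore rests on few bases, and their sum does not depend on it.

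The members share short promoter motifs, shown because these 5 genes are the 4 rule genes and the marker that the rule did not use. The sequences come from the RefSeq promoter table for GRCm38.p6, which gives 250 bases before each RefSeq gene start, and each is a 30-base window written 5′ to 3′ on the gene's strand. Capitals mark matches, on either strand, to the motifs CACCC and CCAAT and to the GATA factor motif GATAA, which reads TTATC from the other strand. The windows lie at chr11:32283569-32283598 (+ strand, Hba-a1), chr11:32296386-32296415 (+, Hba-a2), chr7:103827990-103828019 (- strand, Hbb-bs), chr7:103813984-103814013 (-, Hbb-bt) and chrX:150547316-150547345 (+, Alas2). The GENCODE M21 genes start 161, 3, 168, 73 and 42 bases further upstream in this order, so all 30 bases of the Hba-a1 and Hbb-bs windows and 13 of the Hbb-bt window lie within GENCODE gene spans.
Hba-a1: gcaagcacaaaccagCCAATgagaactgct
Hba-a2: gcaagcacaaaccagCCAATgagaactgct
Hbb-bs: aCACCCtggtaagggCCAATctgctcacac
Hbb-bt: aCACCCtggcATTGGCCAATctgctcagag
Alas2: agactactttgctttTTATCtttagcagag
In the 250 bases before the start, all 5 genes had CACCC and GATAA, and the 4 globins but not Alas2 had CCAAT. Of 32851 promoters in the table, 52.0% had CACCC, 33.8% CCAAT, 22.6% GATAA and 22.8% TATAA, which all 5 genes also had. The promoters of Hba-a1 and Hba-a2 shared an identical run of 247 bases, those of Hbb-bs and Hbb-bt one of 14. A match is a description of letters and was not read as a bound site.

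Most red cell barcodes of tumor 1 were missing from the normalized file. It held 10 of 163 (6.13%, 95% interval 2.98% to 10.99%) in tumor 1, 9 of 10 (90%, 55.5% to 99.7%) in tumor 2 and 10 of 22 (45.5%, 24.4% to 67.8%) in tumor 3. Of the other barcodes it held 61.5%, 28.1% and 41.6%. In tumor 1 the intervals of the red cell and other barcodes do not overlap, with the red cell barcodes lower. In tumor 2 they do not overlap either, but the red cell barcodes were higher, and in tumor 3 they overlap. Over 3 tumors an exact sign-flip test cannot go below p = 0.25, so none was run. In all, 29 of the 195 were kept, and they made up 0.522%, 0.737% and 0.398% of all kept barcodes.

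The kept barcodes set ranges that many red cell barcodes fell outside. The lowest number of genes in any kept barcode without the red cell label was 288, 653 and 675, and 111 of 153, 1 of 1 and 7 of 12 red cell barcodes that were not kept lay below it. Within the ranges of UMIs, genes and mitochondrial share of the kept others lay 41, 0 and 5 of those not kept. Among other barcodes inside these ranges 96.4%, 89.8% and 94.8% were kept. Which step left the 41 and 5 barcodes out was not tested.

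Kept and missing red cell barcodes of tumor 1 differed in content. The 10 kept had a median globin share of 38.0%, 849 genes and 4.298% mitochondrial UMIs, and the 153 missing had 88.8%, 247 genes and 0.220%. Globin UMIs are part of the total of the mitochondrial share, so a difference in globin share alone moves it. Among the kept, the most abundant genes outside the globins were Gm42418, Malat1 and Tmsb4x, and Lyz2, C1qa and C1qb were among the top 15. The barcode with the most UMIs gave 21378 of the 41101 UMIs of this sum and 985 of its 1006 macrophage marker UMIs, so these 3 genes describe 1 barcode. That barcode also held 833 of the 1014 Tmsb4x UMIs, and Tmsb4x had 246.7 per 10000 with it and 91.8 without. Among the missing, the most abundant genes were Gm42418, Alas2, Bpgm, Tpt1, Ftl1 and Mkrn1. By globin share, 1 of the 92 barcodes of tumor 1 between 80% and 90% was kept and 0 of the 51 at 90% or more.

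Genes of late red cell maturation stood highest among the lists outside the globins in tumors 1 and 2. In tumor 3 they were beside the tumor cell markers, which had 101 UMIs against 100. The 21 measured genes of late maturation and organelle clearance summed to 443 UMIs per 10000 in the red cell barcodes of tumor 1, 125.0 in tumor 2 and 35.7 in tumor 3, against 26.6, 20.6 and 13.7 in the other barcodes. The 8 heme synthesis genes summed to 153.1, 32.6 and 13.9, against 1.52, 2.27 and 2.31. Both lists were higher in the red cell barcodes of all 3 tumors, most in tumor 1. In tumor 3 the difference was smallest, and Poisson 95% intervals of the late list (29.1 to 43.5 in the red cell barcodes) still did not reach the level of the other barcodes.

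**Figure D2:**
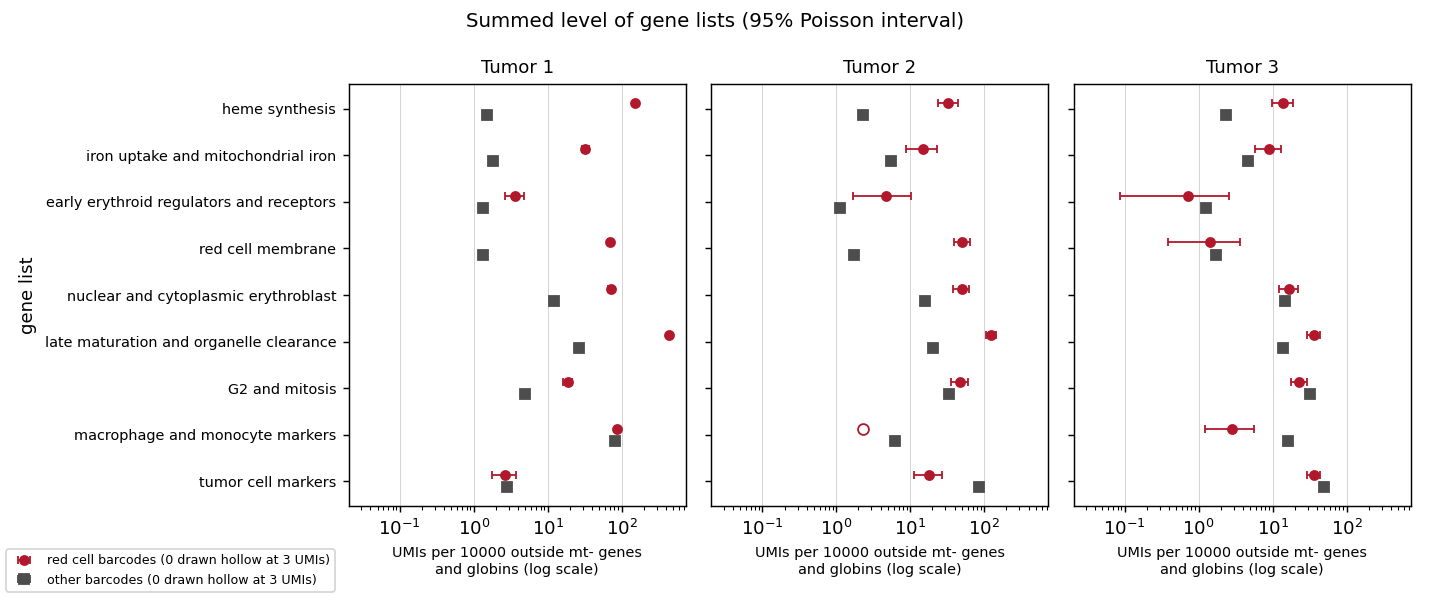
Summed UMIs per 10000 outside mitochondrial genes and globins (log scale) of 9 gene lists in red cell and other barcodes of each tumor, with 95% Poisson intervals. Heme synthesis and late maturation are higher in red cell barcodes in all 3 tumors, whereas membrane genes in tumor 3 are at 1.43 against 1.74 in the other barcodes.

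Red cell barcodes and other barcodes were compared over the 3 tumors with UMIs summed per tumor and class, leaving out the 4 globins and mitochondrial genes. Without the tumor as a block, edgeR tested 11884 genes and called 0 higher and 0 lower (0% each) at an adjusted p under 0.05, while an unadjusted p under 0.05 was reached by 110 higher and 774 lower genes. DESeq2 called 23 of 10821 higher (0.213%) and 0 lower (0%), with 199 and 185 at an unadjusted p under 0.05. Both sums of a tumor come from 1 animal, and with the tumor as a block edgeR called 54 higher (0.454%) and 17 lower (0.143%), with 175 and 1269 unadjusted. Of the 54, 21 were among the 23 of DESeq2, which is 38.9% of the first set and 91.3% of the second. DESeq2 gave no adjusted p for some of the 54, among them Alas2, Ube2l6, Bpgm, Fech, Fam46c and Cdr2. They count as not shared, which is not a result against them. Calls that follow are those of the blocked edgeR fit, unless another is named.

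These fits lean on shallow sums. The red cell sums had 122278, 12880 and 27974 UMIs and the other sums 15397730, 15096414 and 14506787, and 2252 of the 11884 genes (18.9%) had 0 UMIs in all red cell barcodes. In such red cell sums a few UMIs are a high level, so the filter on low counts let in genes that were rare in the others. Alas2 (0.00729 and 0.00896 per 10000 in the others of tumors 2 and 3) and Dhrs11 (0.00662 and 0.00483) entered through the red cell sums. The p-values of such genes carry that selection. The median log2 fold change (red cell minus other) over all genes tested was -0.88 with the scaling factors of edgeR, -0.72 with library size only and -0.27 with DESeq2, and -0.42 with genes at 0 set to the bound that 3 UMIs allow. With the tumor as a block and library size only, chosen after seeing the data, the calls were 153 higher and 210 lower, so the share of higher calls depends on the scaling. Leaving out tumors 1, 2 and 3 in turn gave 20, 0 and 21 higher and 54, 0 and 0 lower calls without the block, and 10, 26 and 36 higher and 40, 0 and 0 lower with it. So the calls change with the tumors included. Of the genes tested, 132 were higher in the red cell barcodes of 3 of 3 tumors and 6264 in 0. Here a red cell sum at 0 UMIs counts as not higher, and 1 UMI can count as higher.

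Heme synthesis genes were called higher in 2 of 8, with a median log2 fold change of 1.69 in the fit without a block, which gives all list medians here. Alas2 had a log2 fold change of 10.35 (adjusted p = 5.76e-56 by blocked edgeR; 11.42, SE 2.04, adjusted p = 0.627 without the block; higher in 3 of 3 tumors). DESeq2 gave it 11.52 and no adjusted p. Alas2 had passed the filter on low counts through the red cell sums, so these p-values are not read as support for the label. Fech, which inserts iron into the ring in the last step, had 27.0, 5.43 and 2.50 UMIs per 10000 in red cell barcodes and 0.190, 0.0530 and 0.0882 in the others. Its log2 fold change was 5.81 (adjusted p = 9.00e-13 by blocked edgeR, 3 of 3 tumors). The other 6 enzymes of the list were not called. Urod, a cytosolic enzyme of the pathway, had 2.78, 3.11 and 0.715 per 10000 against 0.234, 0.455 and 0.414.

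Among iron genes, 1 of 8 was called. Slc25a37 (mitoferrin 1), which carries iron into mitochondria, had 13.7, 2.33 and 0.357 UMIs per 10000 in red cell barcodes and 0.229, 0.140 and 0.165 in the others, with the value of tumor 3 from 1 UMI. Its log2 fold change was 3.74 (adjusted p = 0.00526 by blocked edgeR, 0.0293 by DESeq2, 3 of 3 tumors). Glrx5, an iron-sulfur cluster protein, was the most abundant member in each tumor, at 15.9, 8.54 and 8.58 against 0.731, 2.69 and 3.24, and was not called. Tfrc, the transferrin receptor, had 17, 4 and 0 UMIs. The list median was 0.89, with Slc25a38 at 0 in all red cell barcodes.

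Of 20 late maturation genes tested, 8 were called, all higher, with a list median of 2.74. Bpgm, which makes the 2,3-bisphosphoglycerate that lowers oxygen affinity, had 91.8, 17.9 and 7.86 UMIs per 10000 against 0.157, 0.144 and 0.205. Its log2 fold change was 6.48 (adjusted p = 1.53e-24 by blocked edgeR). It was higher in 3 of 3 tumors.

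Genes of protein and organelle turnover were among the other calls. Bnip3l, the mitophagy receptor that clears mitochondria from reticulocytes, had 43.6, 10.1 and 2.14 UMIs per 10000 against 1.55, 0.615 and 0.546, with a log2 fold change of 3.20 (adjusted p = 8.38e-05 by blocked edgeR, 3 of 3 tumors). Mkrn1, an E3 ubiquitin ligase, had 73.8, 22.5 and 5.36 against 1.13, 0.725 and 0.704. Ube2l6, an E2 enzyme that acts with the ubiquitin-like protein ISG15, had 39.7, 4.66 and 2.86 against 0.147, 0.00795 and 0.0145. Bcl2l1, which encodes the survival protein BCL-XL, and Isg20, an exonuclease gene, were called with 0 UMIs in tumor 3. Fech also belongs to this list. Trim58 had 0 UMIs in all red cell barcodes and was not tested. Gabarapl2, Map1lc3b and Ube2o were not called, at log2 fold changes of 2.78, 2.69 and 4.39 in the fit without a block. Ulk1 (1 UMI), Btg2, Pim1 and Bsg went the other way in that fit, at -2.04, -1.31, -0.41 and -0.66, and were not called.

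Red cell membrane genes divided the tumors. The 17 genes summed to 69.9 UMIs per 10000 in tumor 1, 50.5 in tumor 2 and 1.43 in tumor 3, against 1.32, 1.74 and 1.74 in the other barcodes. In tumor 2, 35 of the 65 UMIs lay in 1 barcode, and the level without it was 27.4. In tumor 3, 16 of the 17 had 0 UMIs and Epb41, the protein 4.1 gene, had 4. Of the 10 tested, 4 were called higher, Slc4a1, Sptb (beta spectrin), Ank1 (ankyrin 1) and Epb41, with a list median of 2.61. Slc4a1 had a log2 fold change of 9.11 (adjusted p = 8.35e-16 by blocked edgeR, 4.86e-06 by DESeq2, higher in 2 of 3 tumors), and that of Epb41 was 3.19 (adjusted p = 0.00215 by blocked edgeR, 3 of 3 tumors). The other 7, among them Epb42 (protein 4.2, 14, 2 and 0 UMIs), had too few UMIs to be tested.

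Erythroblast genes were likewise high in tumors 1 and 2. The 12 genes summed to 71.1, 49.7 and 16.4 UMIs per 10000 against 12.1, 16.0 and 14.5. Car2, a carbonic anhydrase, had 15.05, 9.32 and 0 against 0.133, 0.00795 and 0.0117, with a log2 fold change of 7.08 (adjusted p = 7.70e-12 by blocked edgeR, higher in 2 of 3 tumors). In tumor 1, 83 of its 184 UMIs lay in 2 of 163 barcodes, and in tumor 2 it was seen in 4 of 10. Blvrb, a biliverdin reductase, and Cat, catalase, were the other calls among 7 tested. Mt1 and Mt2 had log2 fold changes of -0.67 and -0.96 in the fit without a block and were not called. Prdx2, a peroxiredoxin, was the most abundant of the list in the red cell barcodes of each tumor at 25.9, 12.4 and 8.94, against 2.54, 10.2 and 9.22, and was not called.

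Regulators of early stages were sparse. The 10 genes summed to 3.60, 4.66 and 0.715 UMIs per 10000 in red cell barcodes and 1.35, 1.13 and 1.26 in the others. In tumor 2, 5 of the 6 UMIs lay in 1 barcode, and the level without it was 0.914. Gata1, the master regulator of erythroid genes, had 0 UMIs in all 195, which allows up to 0.245, 2.33 and 1.07 per 10000. The others had 0.00714, 0 and 0, so no difference was detectable at this depth. Epor, the erythropoietin receptor, had 1, 1 and 0 UMIs. Lmo2, an adaptor of the erythroid transcription complex, led the list in tumor 1 with 21 UMIs. None of the 4 tested was called by blocked edgeR, and Gata1, Klf1, Tal1, Nfe2, Gfi1b and Epor had too few UMIs to be tested.

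Genes of G2 and mitosis were mixed. They summed to 18.6, 47.4 and 22.9 UMIs per 10000 in red cell barcodes and 4.98, 33.9 and 32.2 in the others, and 0 of 10 were called by any of the 3 fits, with a list median of -0.81. Ube2c, an E2 enzyme of the anaphase-promoting complex, was the most abundant of the list in each tumor with 159 of 227, 19 of 61 and 23 of 64 UMIs, or 13.0, 14.8 and 8.22 per 10000 against 0.805, 3.95 and 5.40. Mki67, which marks cycling cells, was at 1.55, 6.21 and 0.357 against 0.796, 8.21 and 5.90. Some barcodes held mitosis UMIs together with those of early genes. A barcode of tumor 2 with 34.6% globin had 28 of the 61 mitosis UMIs, 7 of the 8 Mki67 UMIs, both Klf1 UMIs and 35 of the 65 membrane gene UMIs of that tumor. Without it the mitosis list of tumor 2 stood at 30.2, below the others. A barcode of tumor 1, with 14.1% globin, had 35 mitosis UMIs, 12 of Mki67, 42 of Car2 and both Klf1 UMIs of that tumor.

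By the rule for named genes, 20 genes stood out, 10 in each direction. The rule, applied to the blocked fit after its values were seen, takes the largest log2 fold changes among called genes that moved the same way in 3 of 3 tumors with at least 50 CPM on average in the higher class (CPM, counts scaled to a common library size). Of the 54 higher calls, 30 were higher in 3 of 3 tumors, and all 17 lower calls were lower in 3 of 3. A red cell sum at 0 UMIs counts as lower here, even where the level in the others is below what 3 UMIs would give. Neat1, for example, had 0 UMIs in tumors 2 and 3 against 0.529 and 0.437 per 10000 in the others. So lower in 3 of 3 does not show a lower level in each tumor. In the same way 1 UMI in a red cell sum can count as higher. In tumor 3, Rsad2 and Dhrs11 had 1 UMI each, and Fam46c and Cdr2 had 2 each. Higher in 3 of 3 therefore does not show a higher level in each tumor either. The 10 higher genes included Alas2, Ube2l6, Dhrs11, Bpgm, Rsad2, Fech, Fam46c, Cdr2 and March2. Alas2, Ube2l6, Bpgm and Fech are described with their lists. Rsad2, an interferon-induced gene (viperin), had 399, 7 and 1 UMIs, or 32.6, 5.43 and 0.357 per 10000 against 0.113, 0.0404 and 0.0331. Fam46c, an older symbol of the poly(A) polymerase gene Tent5c, had 36.8, 3.88 and 0.715 against 0.385, 0.0212 and 0.0496. March2, a membrane-bound E3 ubiquitin ligase, had 24.5, 6.99 and 1.43 against 0.448, 0.212 and 0.191.

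The 10 lower genes were Slit2, Ptprf, Neat1, S100a8, Igsf8, Kif5c, S100a9, Col1a1, Col3a1 and Ncam1. Slit2, an axon guidance ligand, and Ptprf, a receptor phosphatase, had 0 UMIs in all red cell barcodes. Over the 3 tumors and against the share in the others of the same tumor, 3 UMIs give Slit2 at least 4.18-fold and Ptprf at least 3.92-fold lower. Kif5c, a neuronal kinesin, had 0, 0.776 and 0.715 per 10000 (3 UMIs in all) against 0.177, 8.28 and 7.24, and Ncam1, a neural adhesion molecule, had 0.245, 0 and 0.357 (4 UMIs) against 0.405, 7.997 and 5.20. The 10 tumor cell markers had 0 calls by any of the 3 fits. Their median log2 fold change was -1.27 without a block and -1.09 with it, near the -0.88 and -0.91 of all genes tested. As a sum they were lower in tumors 2 and 3, at 17.9 and 36.1 UMIs per 10000 against 84.6 and 49.9 in the others. In tumor 1 they were at 2.62 (Poisson interval 1.79 to 3.69) against 2.83, so not told apart.

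S100a8 and S100a9, the calprotectin subunits of neutrophils, had 14 and 26 UMIs in tumor 1 and 0 in tumors 2 and 3, with log2 fold changes of -4.55 and -4.32 (adjusted p = 4.63e-05 and 8.38e-06 by blocked edgeR). They were 2 of the 7 neutrophil genes tested, with a list median of -3.76 and of -2.97 with genes at 0 set to their bound. Of the fibroblast list, Col1a1 and Col3a1 were the 2 calls of 5. Lyz2 was the 1 call among the 10 macrophage genes, with a log2 fold change of -1.99 (adjusted p = 0.0451 by blocked edgeR; -3.46 without the barcode with the most UMIs). The fit without a block gave -0.41, and 0.0187 in barcodes of the normalized file alone, with the red cell sum of tumor 2 left out. The median of the macrophage list was 0.66 without a block and -0.43 with it, and 985 of the 1068 UMIs of the list in tumor 1 lay in the barcode with the most UMIs. Its summed level without that barcode was lower than in the others in all 3 tumors. No gene of the platelet, T cell, B cell or endothelial lists was called by blocked edgeR, of 2, 4, 3 and 6 tested.

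Over all red cell barcodes Malat1 was lower in each tumor, and Gm42418 was clearly higher in tumor 1. Malat1, a long RNA held in the nucleus, had 120.7, 52.0 and 35.0 UMIs per 10000 in red cell barcodes against 257, 145 and 141, with a log2 fold change of -2.06 (adjusted p = 6.52e-07 by blocked edgeR, lower in 3 of 3 tumors). The 10 kept barcodes of tumor 1 had 268, with 449 of their 1103 UMIs in 1 barcode and 185 without it, and those of tumors 2 and 3 had 54.3 and 44.6. Neat1, another nuclear RNA, had 2, 0 and 0 UMIs. Gm42418 lies at chr17:39846958-39848788 within the span of the ribosomal RNA gene CT010467.1 on the other strand. It had 1952, 312 and 512 UMIs per 10000 against 403, 125 and 295, with a log2 fold change of 0.89 (adjusted p = 0.0198 by blocked edgeR). In the scaled CPM of that fit it was at 369588 against 57016 in tumor 1 but near equal in tumors 2 and 3, at 14903 against 13823 and 33629 against 33116, so the size of the difference there depends on the scaling. It was the most abundant gene outside the globins in the red cell barcodes of each tumor. The fit without a block gave 2.01 (adjusted p = 0.627), and -0.24 in barcodes of the normalized file alone, with the red cell sum of tumor 2 left out. These genes were picked after their values were seen.

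Within tumor 1 the content of red cell barcodes moved with the globin share. From 10% to 50% globin (8 barcodes) the late maturation list had 58.3 UMIs per 10000, from 50% to 80% (12 barcodes) 343, from 80% to 90% (92 barcodes) 608 and at 90% or more (51 barcodes) 711. Alas2 followed with 9.80, 51.8, 159.8 and 214, and Gm42418 with 498, 1720, 2671 and 2735. Car2 had 75.01 from 50% to 80%, but 41 of its 42 UMIs there lay in 1 barcode, without which it had 2.35, against 15.1 from 80% to 90% and 3.53 in the top bin. Slc4a1 had 32.1, 22.3 and 7.05 in these bins, and 18.8 from 50% to 80% without that barcode, so neither gene has a peak there beyond 1 barcode. The 2 lowest bins hold under 20 barcodes, and the lowest includes the barcode with the macrophage markers. Without that barcode the late list of the lowest bin had 90.8 UMIs per 10000. The levels leave the globins out of the denominator, and the part of depth and of free RNA in this pattern was not tested. In tumor 3 the late list had 26.1 UMIs per 10000 in the 18 barcodes under 50% and 80.5 in the 4 above.

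Relative to globin, Alas2 was more even across the tumors. In the red cell barcodes there were 22.0 Alas2 UMIs per 10000 globin UMIs in tumor 1 (95% interval 20.8 to 23.1), 18.5 in tumor 2 (11.5 to 28.3) and 12.5 in tumor 3 (8.22 to 18.1). The intervals of tumors 1 and 3 do not overlap, and that of tumor 2 overlaps both. In the other barcodes the ratio was 22.5, 88.1 and 40.0, from 75, 11 and 13 Alas2 UMIs. In tumor 1 it was within the interval of the red cell barcodes.

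Globin RNA was present in the other barcodes as well. Of the other barcodes, 99.4% in tumor 1, 20.6% in tumor 2 and 32.4% in tumor 3 had at least 1 globin UMI, at median depths of 1465, 2845 and 2018 UMIs outside mitochondrial genes. Globin made up 21.6 per 10000 of those UMIs in tumor 1, 0.827 in tumor 2 and 2.24 in tumor 3. The order of the tumors was that of their share of red cell barcodes, with tumor 1 highest and tumor 2 lowest. With 3 tumors no correlation is given.

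In tumor 1 the number of globin UMIs hardly changed with depth. Its median in the other barcodes was 10 below 500 UMIs, 11 from 500 to 1000, 10 in the bins up to 10000 and 12 at 10000 or more. The mean went from 10.2 in the lowest bin to 12.1 in the highest, while the share fell from 236 to 5.70 per 10000. In tumors 2 and 3 the median was 0 in every bin, and the means at 10000 or more were 0.582 (98 barcodes) and 2.02 (63 barcodes).

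**Figure D3:**
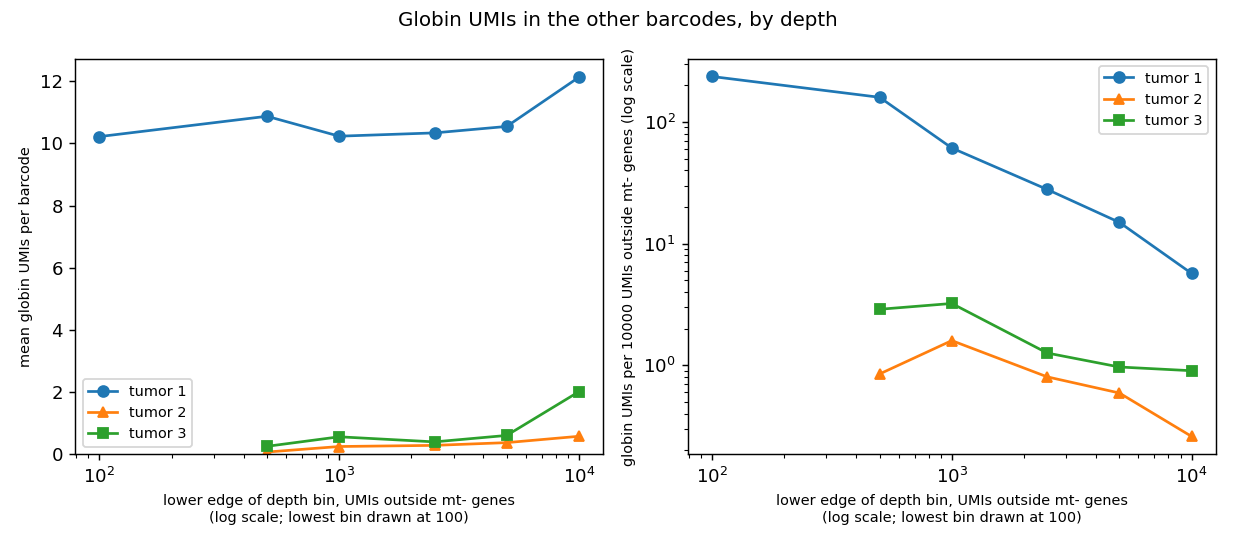
Mean globin UMIs per other barcode (left, linear axis) and globin UMIs per 10000 UMIs (right, log scale) in bins of depth with at least 20 barcodes, for each tumor. In tumor 1 the mean stays between 10.2 and 12.1 UMIs while the share falls from 236 to 5.70 per 10000.

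The globins in the other barcodes of tumor 1 had close to the composition of its red cell barcodes. Hbb-bs was at 54.8% against 54.2%, Hbb-bt at 11.3% against 11.04% and Hba-a1 at 18.7% against 19.7%. In tumor 2 Hbb-bs was at 63.5% (95% interval 60.8% to 66.2%) against 60.0%, and in tumor 3 at 57.2% (55.5% to 58.9%) against 58.5%. The alpha to beta ratio of the others was 0.512, 0.382 and 0.495, lowest in tumor 2 as in the red cell barcodes.

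Other erythroid genes in the other barcodes did not keep the ratio to globin everywhere. Bpgm had 17.0 UMIs per 10000 globin UMIs in the red cell barcodes of tumor 1 and 72.6 in its others, and in tumor 2 it had 20.3 and 1745. Slc4a1 had 2.80 and 3.30 in tumor 1, within counting error, and 11.5 and 224 in tumor 2. For Bpgm the ratio was higher in the others of all 3 tumors, with 10.2 and 917 in tumor 3.

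The authors' corrected counts held less globin. In the other kept barcodes 57.5%, 60.8% and 73.5% of the globin UMIs were left, and 46.1%, 54.5% and 56.3% of all UMIs outside mitochondrial genes and globins. The share of these barcodes with a globin UMI went from 99.1% to 48.7% in tumor 1, from 21.7% to 13.8% in tumor 2 and from 36.0% to 24.1% in tumor 3. As a level, globin stood at 21.0, 1.96 and 4.25 per 10000 after correction and 16.9, 1.76 and 3.26 before, in the same kept barcodes. So the level per 10000 was not lower after correction in any tumor, while fewer barcodes held any globin. All 29 kept red cell barcodes were still at or above 10% globin after correction, and in tumor 3, 2 other kept barcodes had passed it.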

How the data were processed

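Single-cell RNA was measured with the 10x 3′ assay in 3 TH-MYCN tumors. The authors aligned reads to mm10 with Cell Ranger 3.1.0, and the deposited raw files hold UMI counts. The deposited normalized files hold natural log values, ln(1 + corrected UMI count) (whole after conversion back, tolerance 1e-06) for 1914, 1221 and 2515 kept barcodes, and the labels name Seurat. Depth was 17319241, 21829496 and 20041044 UMIs for replicates 1, 2 and 3. No sample was left out. The members and gene lists were chosen with earlier results of these data known. Levels are UMIs per 10000 outside mitochondrial genes and globins with exact Poisson or binomial 95% intervals, which cover counting error only. UMI counts of each class were added up by tumor where at least 10 barcodes were left, which gave 6 sums, and tested with edgeR 4.0.16 (filterByExpr, TMM scaling, quasi-likelihood test, Benjamini-Hochberg adjustment over all genes tested, threshold 0.05) in R 4.3.3. The model was also run on simulated counts with 1 fixed spread and added increases only. That run does not show how the model performs on sums like these. Alternatives were DESeq2 1.42.0, the tumor as a block, no filter on low counts, leaving out each tumor, thresholds of 5%, 20% and 50%, kept barcodes only, and, chosen after seeing the data, other scalings and leaving out the barcode with the most UMIs. As a check of pairing, the correlation of centered log values across genes between the red cell and other sums was 0.495, 0.184 and 0.334 within tumors and between -0.452 and 0.309 across tumors. Genes are not independent replicates. The named genes are the globins and Alas2, called members of the lists with the largest fold, defining members at 0 UMIs, and up to 10 genes per direction with the largest fold among called genes that changed in 1 direction across all tumors and averaged 50 CPM or more in the class where they were higher. Since the fit without a block called none, the last clause was applied to the blocked fit. A fold against a class at 0 uses a floor of 3 UMIs over the 3 tumors. Positions and transcripts come from GENCODE M21, where 30464 of 31053 symbols (98.1%) matched, and promoters from RefSeq. Python 3.11.15, numpy 2.4.6, scipy 1.17.1, pandas 2.3.3 and matplotlib 3.10.9 were used.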

Additional observations from a re-analysis of the deposited data

How the results depend on the processing

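The 35 named genes were called with the tumor as a replicate block and none in the main fit. Without the block, 23, 0 and 12 of them passed without replicate 1, 2 and 3, 11 by DESeq2 and 3 with library size only. Genes to which DESeq2 gave no adjusted p count as not passing. With the block, 15, 15 and 13 of them passed without replicate 1, 2 and 3, and 34 without the barcode with the most UMIs. Of 659 values of these genes under the alternatives, 231 passed the threshold. Another 426 kept the direction of the main fit but were not called, as in that fit, or had no adjusted p. The 2 that reversed were Lyz2 (0.0187) and Gm42418 (-0.24) in kept barcodes only. Genes called higher and lower, 0 and 0 without a block, moved to 54 and 17 with the tumor as a replicate block and to 23 higher with DESeq2. Library size only gave 3 higher, and with the tumor as a replicate block 153 and 210. TMM with singleton pairing and the replicate block gave 136 and 176, and the replicate block without the barcode with the most UMIs 53 and 26. Without each replicate in turn the counts ranged from 0 to 21 higher and 0 to 54 lower, and with the tumor as a replicate block from 10 to 36 and 0 to 40. These scaling and block combinations were chosen after seeing the data. At a share of at least 50%, tumor 1 had 1.94% of red cell barcodes kept and a late list level of 622, tumor 2 had 179 and tumor 3 had 4 barcodes, 0% kept and 80.5. With equal weight per barcode the late list was 551 in tumor 1. Free globin per 10000 in tumors 1, 2 and 3 was 57.3, 0 and 0 as a median over barcodes and 21.0, 1.96 and 4.25 in corrected counts. In others under 1% it was 12.6 in tumor 1 and 1.77 in tumor 3, and under 5% 1.93 in tumor 3. Other barcodes inside the kept ranges were kept at 96.4%, 89.8% and 94.8%. The remaining 47 of 83 values stayed within 1.5 times a count or within the 95% interval. The causes of these shifts were not tested. Sums under 10 barcodes were left out for tumor 2 at 20%, 50% and in kept barcodes, and for tumor 3 at 50%. Red cell sums of 12880 to 122278 UMIs limit all tests.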
